A study of Mus musculus with 21 samples.

Results

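Interleukin-6 family cytokines reach heart muscle through receptors that share the subunit gp130. Il6, Lif and Ctf1 encode ligands of the family: interleukin-6, leukemia inhibitory factor and cardiotrophin-1. Lifr and Osmr encode the receptor chains for leukemia inhibitory factor and oncostatin M, which pair with gp130, the product of Il6st. Binding activates Jak kinases attached to gp130, which phosphorylate the transcription factor Stat3, and Stat3 switches on Socs3, an inhibitor that feeds back on gp130 signalling. In the heart the pathway is known for supporting cardiomyocyte survival and hypertrophy under load. The 8 genes Il6, Lif, Ctf1, Il6st, Lifr, Osmr, Stat3 and Socs3 were chosen by name, out of 18193 genes that a probe set of the array names alone. They and the gene lists used below were chosen with earlier results of these data known. Counts of called genes set beside the share over all probe sets or genes are therefore only descriptive. All 21 probe sets of the 8 genes are described here, and 17 of these, covering 6 of the 8 genes, were bright enough to be tested. Il6, Lif and 1 probe set of Osmr (1459217_at) were too dim.

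The samples were 21 total RNA preparations from mouse hearts, measured on 1 expression array each. The labels name cardiac myocytes as the source and do not say whether these were isolated or measured within whole tissue. G4D mice were heterozygous for a Gata4 allele that lacks its second exon, and wild-type mice carried no such allele. In transverse aortic constriction (TAC) a ligature narrows the aorta and puts the left ventricle under pressure, and sham surgery leaves the aorta alone. The groups were G4D TAC (n = 6), G4D sham (n = 5), wild-type TAC (n = 6) and wild-type sham (n = 4). Age, strain and the time after surgery were not stated, and nothing beyond the titles shows that replicates were separate animals. The p-values therefore set group differences against the spread between these samples, which may be partly technical. Values are on a log2 scale, on which 1 unit is a doubling, and come from probe sets whose brightness cannot be set against that of other probe sets. The number of arrays limits the precision.

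With cardiac myocytes named as the source, 10 of 10 cardiomyocyte markers were measured, with a mean level over the list of 12.3 to 12.4 on every array. Markers of other cells were measured too: 10 fibroblast genes averaged 8.72 to 10.1 and 10 macrophage genes 7.28 to 8.63 over the arrays. In bulk RNA of this kind, more cells of a type and more RNA per cell cannot be told apart. The atrial light chains Myl7 and Myl4 set some arrays apart. They read 11.7 and 13.1 in G4D sham sample 5, where the other G4D sham arrays reached at most 5.42 and 7.78. In G4D TAC sample 6 they read 6.87 and 9.80, where the other G4D TAC arrays reached at most 5.14 and 7.81, and in wild-type sham sample 4 they read 6.31 and 8.39, where the other wild-type sham arrays reached at most 5.35 and 7.86. Leaving out any 1 of these 3 arrays changed no call of a member in the comparisons it enters. Leaving out both G4D arrays, an alternative chosen after the data were seen, ended 1 call, that of Socs3 1456212_x_at. Gata4 itself averaged 7.97 ± 0.18 in G4D TAC (SD, n = 6), 7.85 ± 0.09 in G4D sham (n = 5), 7.80 ± 0.23 in wild-type TAC (n = 6) and 8.11 ± 0.15 in wild-type sham (n = 4) by its brighter probe set (1418863_at). The genotypes overlapped there and in the second probe set (1418864_at). Whether either probe set reads the deleted exon is not given in the sources used here, so they are no check of the genotype labels.

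The promoters of the 2 members that rose under TAC are shown first, because Stat proteins bind a short palindrome that can be looked for in them. RefSeq windows of the GRCm38.p6 build, from 250 bases before to 50 bases after the start site, were found for 8 of 8 members, in 9 windows. The letters TTCNNNGAA, which read the same on both strands, occurred in 1 of the 8 genes, Socs3, and in 8.3% of all 32851 windows. The stricter TTCCNGGAA, also the same on both strands and contained in the first motif, occurred in no member window and in 1.15% of all windows. In Socs3 the match, in capitals here, begins 154 bases before the start site. The Osmr window holds neither motif, which says only that these letters are not in these 300 bases. The 2 windows, written 5' to 3' along the gene, lie at chr11:117969317-117969616 (minus strand, Socs3) and chr15:6874264-6874563 (minus strand, Osmr).
Socs3: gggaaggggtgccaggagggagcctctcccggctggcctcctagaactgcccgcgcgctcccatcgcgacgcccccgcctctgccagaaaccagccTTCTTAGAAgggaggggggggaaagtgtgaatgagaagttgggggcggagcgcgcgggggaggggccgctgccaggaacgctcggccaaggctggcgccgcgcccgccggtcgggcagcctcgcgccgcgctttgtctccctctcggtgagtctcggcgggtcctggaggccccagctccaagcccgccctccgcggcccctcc
Osmr: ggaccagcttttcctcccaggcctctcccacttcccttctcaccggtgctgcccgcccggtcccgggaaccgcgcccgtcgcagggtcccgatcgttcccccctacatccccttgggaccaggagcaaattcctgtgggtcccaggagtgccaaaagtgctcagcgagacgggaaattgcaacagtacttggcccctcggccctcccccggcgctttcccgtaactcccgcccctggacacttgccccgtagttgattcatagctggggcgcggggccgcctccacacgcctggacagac
A match describes the letters and does not show that a factor is bound there.

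TAC changed 4 of the 6 tested genes in G4D hearts and 1 of them in wild-type hearts. By the brightest probe set of each gene, in G4D hearts the feedback inhibitor Socs3 rose 2.60-fold and the receptor chain Osmr 1.70-fold. The ligand Ctf1 and the receptor chain Lifr fell there, each to 0.59 of the sham level. In wild-type hearts Socs3 rose 2.17-fold. The other probe sets of Socs3, Osmr and Lifr gave smaller changes, and only Socs3 1456212_x_at passed among them, in G4D. Socs3 1416576_at gave 1.26-fold in G4D and 1.14-fold in wild type and did not pass. In G4D hearts 5 of the 17 tested probe sets passed the test, 3 higher and 2 lower, against a background of 17.6% of all 27022 tested probe sets called, 10.4% higher and 7.21% lower. In wild-type hearts 1 of 17 passed, against a background of 4.76%. The members' median log2 change was 0.16 in G4D and 0.04 in wild type, beside -0.03 and -0.02 over all tested probe sets. A probe set was called at a limma adjusted p under 0.05, with Benjamini-Hochberg adjustment over all tested probe sets.

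**Figure D1:**
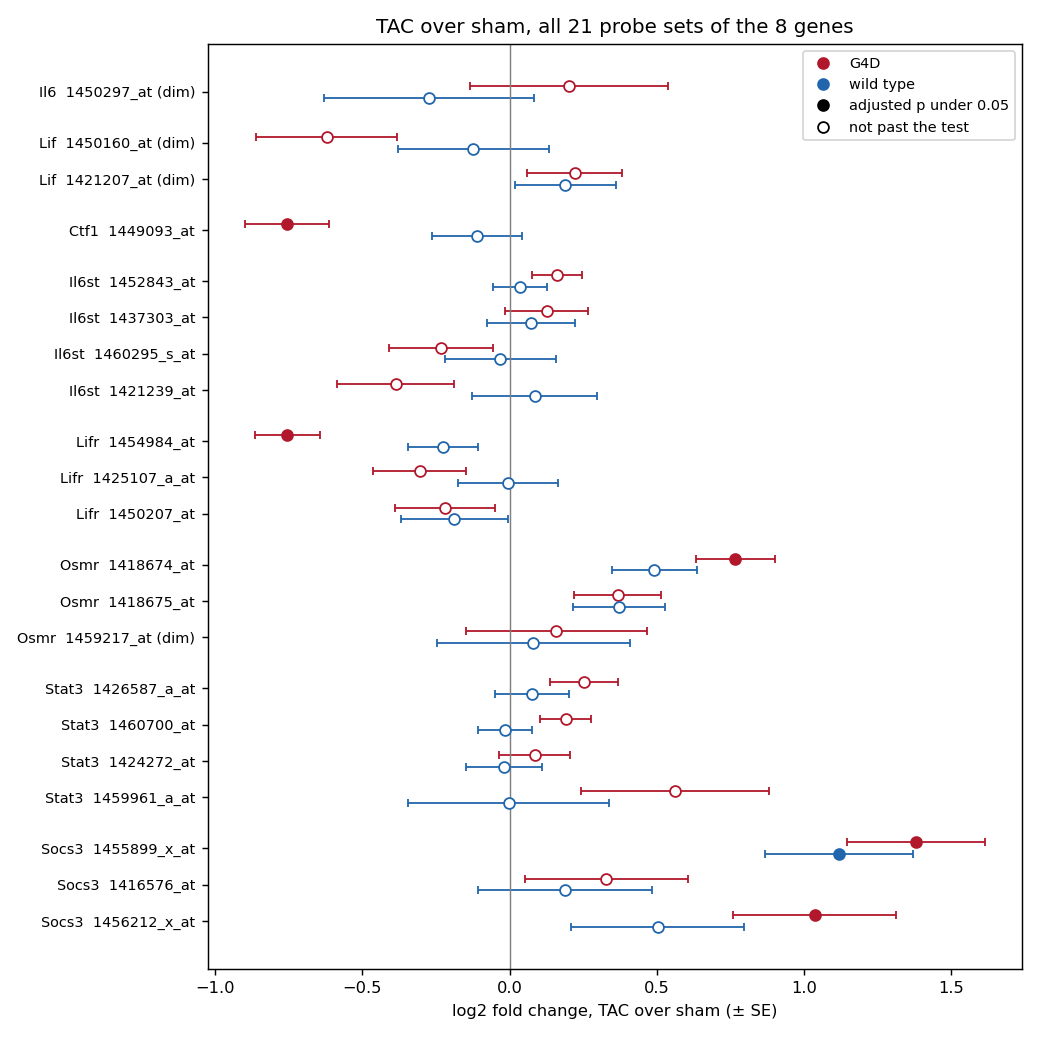
Log2 fold change of TAC over sham (x axis, ± SE) for each of the 21 probe sets of the 8 genes (rows), in G4D (red, n = 6 against 5) and in wild type (blue, n = 6 against 4), with filled points for a limma adjusted p under 0.05. The filled points are Ctf1 and Lifr left of 0, and Osmr and 2 Socs3 probe sets right of it, in G4D, and 1 Socs3 probe set in wild type.

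Of the 3 ligands, Ctf1 was bright enough to be tested. Its 1 probe set (1449093_at) read 6.23, 6.36, 6.15, 6.53, 6.42 and 6.15 in G4D TAC, against 7.44, 7.11, 6.88, 6.84 and 7.04 in G4D sham. Every G4D TAC array lay below every G4D sham array. The change was -0.76 ± 0.14 (SE; limma adjusted p = 0.000874), and -0.73 without both G4D arrays with high atrial markers (limma adjusted p = 0.00586). In wild-type hearts Ctf1 ran from 6.24 to 6.98 around a median of 6.64 after TAC, against 6.59, 6.50, 6.88 and 7.07 after sham. These ranges overlapped, and the difference of -0.11 ± 0.15 did not pass (limma adjusted p = 0.801). From highest to lowest the group means of Ctf1 ran G4D sham, wild-type sham, wild-type TAC and G4D TAC, and no neighbours in that order differed past the test.

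Il6 and Lif stayed below the brightness limit of 4.35, the 40th percentile of all probe sets, and their values come from a fit of all 45037 probe sets. Il6, the founding cytokine of the family, read a median of 3.26 in G4D TAC (2.03 to 4.04), 3.27 in G4D sham (2.12 to 3.64), 2.84 in wild-type TAC (2.34 to 3.50) and 3.09 in wild-type sham (3.03 to 3.39). All of these ranges overlapped, and the TAC over sham differences were 0.20 ± 0.33 in G4D and -0.27 ± 0.36 in wild type (limma adjusted p = 0.794 and 0.867). Lif, a ligand of the Lifr and gp130 pair, had 2 dim probe sets that differed in sign in G4D. The first (1450160_at) averaged 3.56 ± 0.34 in G4D TAC and 4.18 ± 0.54 in G4D sham (SD), a difference of -0.62 ± 0.24 with a limma adjusted p of 0.124. The second (1421207_at) averaged 3.55 ± 0.32 in G4D TAC and 3.33 ± 0.31 in G4D sham, a difference of 0.22 ± 0.16 with a limma adjusted p of 0.474. In wild-type hearts the differences of the 2 Lif probe sets were -0.12 ± 0.26 and 0.19 ± 0.17. At these levels no change in either ligand passed the test, which does not show that none occurred.

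**Figure D2:**
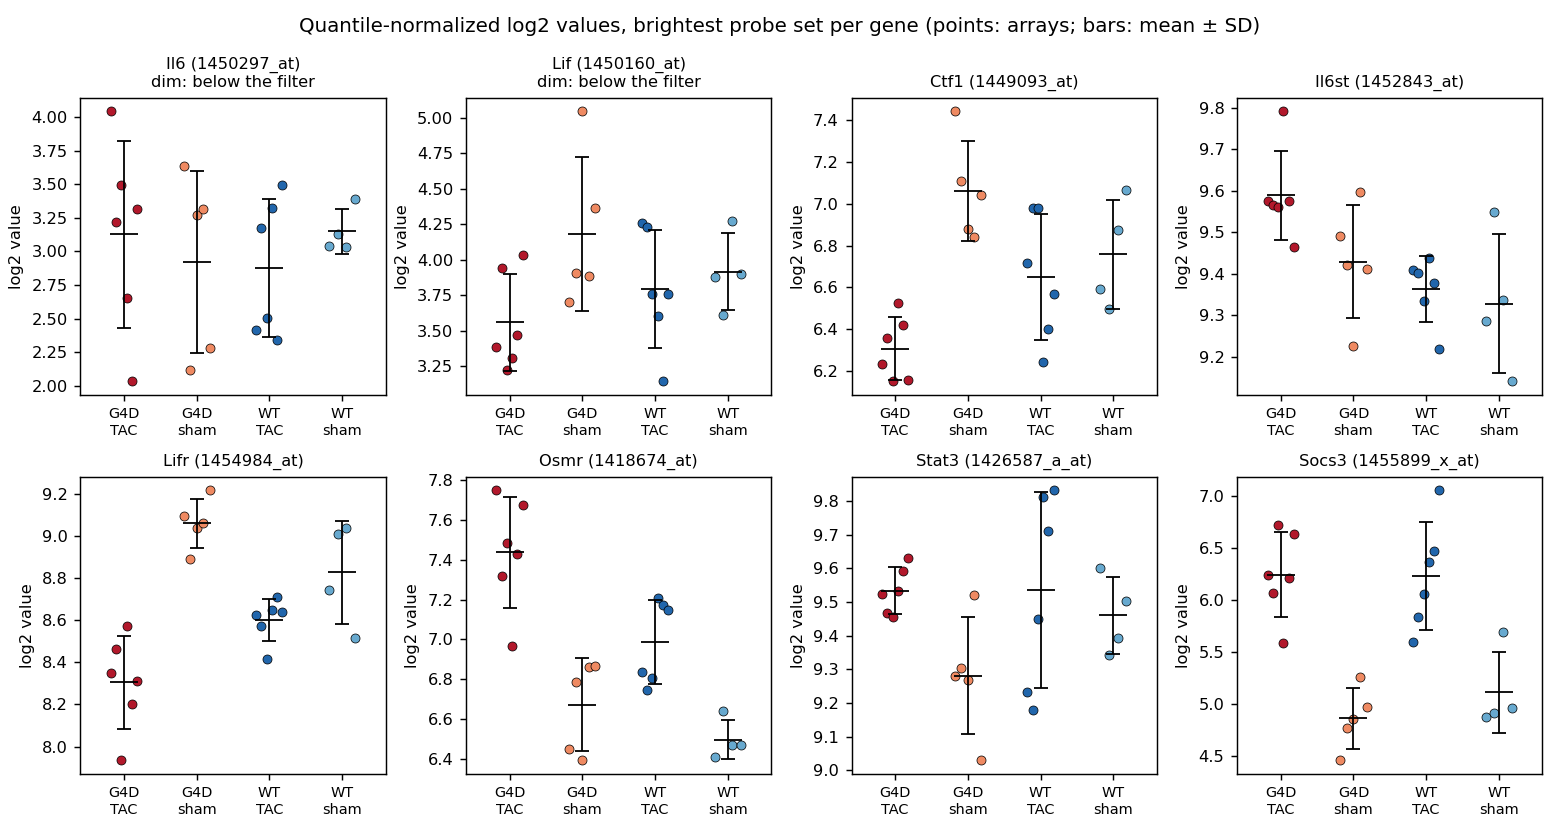
Quantile-normalized log2 values (y axis, a separate scale in each panel) of the brightest probe set of each of the 8 genes in each array (points), with mean ± SD per group, for G4D TAC (n = 6), G4D sham (n = 5), wild-type TAC (n = 6) and wild-type sham (n = 4). For Ctf1 and Lifr the G4D TAC points lie below, and for Osmr and Socs3 above, all G4D sham points.

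Lifr, the chain that binds leukemia inhibitory factor and cardiotrophin-1, gave the call with the smallest p among the members. Its brightest probe set (1454984_at) read 8.35, 8.46, 7.93, 8.57, 8.20 and 8.31 in G4D TAC, against 9.09, 8.89, 9.04, 9.06 and 9.22 in G4D sham. Every G4D TAC array lay below every G4D sham array. The change was -0.75 ± 0.11 (limma adjusted p = 6.96e-05), and -0.72 without both G4D arrays with high atrial markers (limma adjusted p = 0.000856). In wild-type hearts it read 8.62, 8.57, 8.42, 8.65, 8.71 and 8.64 after TAC, against 8.75, 9.01, 9.04 and 8.52 after sham. Only the lowest sham array reached into the TAC range, and the difference of -0.23 ± 0.12 did not pass (limma adjusted p = 0.359). The group means ran, from highest to lowest, G4D sham, wild-type sham, wild-type TAC and G4D TAC, as for Ctf1, and again no neighbours differed past the test. The other 2 Lifr probe sets lay close to the brightness limit, at means of 4.45 (1425107_a_at) and 4.39 (1450207_at) over all arrays. Their TAC over sham differences were -0.31 ± 0.16 and -0.22 ± 0.17 in G4D, and 0.00 ± 0.17 and -0.19 ± 0.18 in wild type, with none past the test.

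Without normalization between arrays, the falls of Ctf1 and Lifr in G4D did not pass. The values as deposited gave -0.38 for Ctf1 and -0.31 for Lifr (limma adjusted p = 0.309 and 0.348), with the median of all tested probe sets at 0.27. Relative to that median the changes were -0.65 and -0.59. With each array centred on its median they were -0.59 and -0.52 and passed (limma adjusted p = 0.0259 and 0.042). The balance of all calls in G4D also moved with the scaling, since 59% of called probe sets were higher after quantile normalization, 87.1% after median centring and 97.4% as deposited. Among the members the calls were 3 higher and 2 lower after quantile normalization, 3 and 2 after median centring, and 4 and 0 as deposited.

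Osmr, the chain that lets gp130 respond to oncostatin M, was higher after TAC on every array of both genotypes by its brightest probe set (1418674_at). It read 7.75, 7.32, 7.48, 6.97, 7.43 and 7.68 in G4D TAC, against 6.45, 6.79, 6.39, 6.86 and 6.87 in G4D sham. In wild-type hearts it read 6.84, 6.75, 6.80, 7.21, 7.18 and 7.15 after TAC, against 6.41, 6.64, 6.47 and 6.47 after sham. In each genotype the lowest TAC array stood above the highest sham array. The change was 0.77 ± 0.13 in G4D and passed (limma adjusted p = 0.000423), and it was again 0.77 without both G4D arrays with high atrial markers (limma adjusted p = 0.00178). In wild type it was 0.49 ± 0.14 and lay just outside the threshold (limma adjusted p = 0.0527). Of 10 fits that each left out 1 array, it passed in 1, without wild-type TAC sample 2, the lowest TAC array (0.54, limma adjusted p = 0.0414). Over these 10 fits the limma adjusted p reached 0.149. The second probe set (1418675_at) gave differences of 0.37 ± 0.15 in G4D and 0.37 ± 0.16 in wild type, with overlapping ranges and limma adjusted p of 0.0913 and 0.223. In G4D it passed in 1 of 11 fits that each left out 1 array, without G4D TAC sample 3, its lowest array (0.49, limma adjusted p = 0.0123). Over these 11 fits the limma adjusted p reached 0.185. The dim probe set 1459217_at gave 0.16 ± 0.31 and 0.08 ± 0.33. From highest to lowest the group means of the brightest probe set ran G4D TAC, wild-type TAC, G4D sham and wild-type sham.

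**Figure D3:**
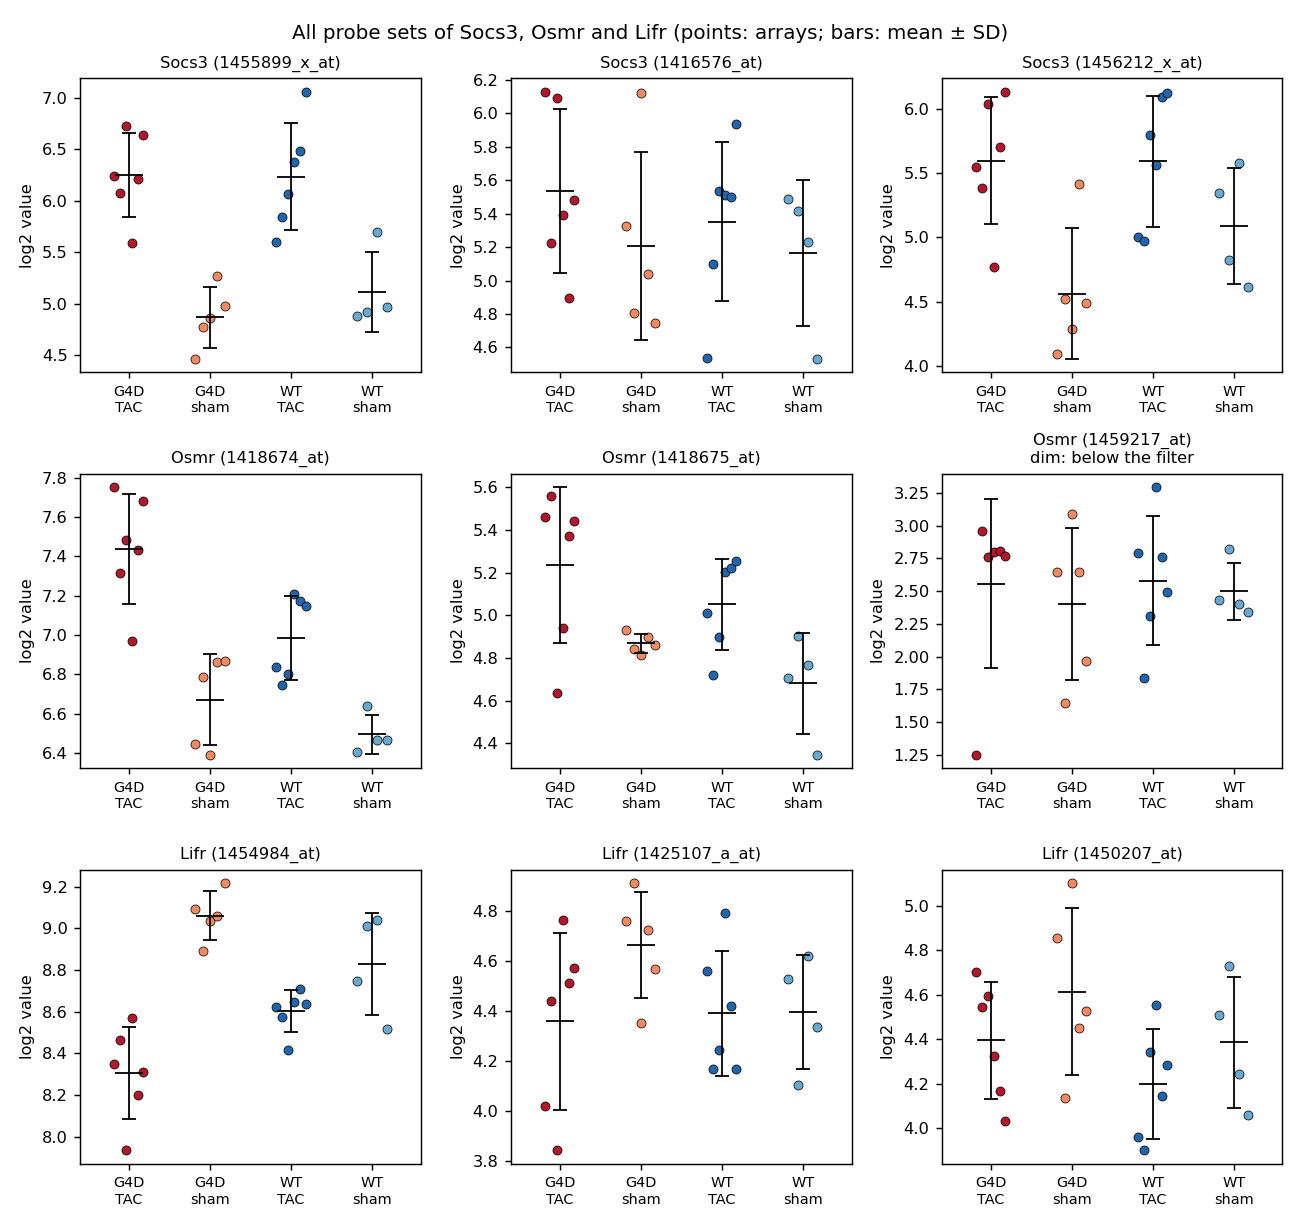
Log2 values (y axis, a separate scale in each panel) of every probe set of Socs3 (top row), Osmr (middle row) and Lifr (bottom row) in each array (points), with mean ± SD per group, for G4D TAC (n = 6), G4D sham (n = 5), wild-type TAC (n = 6) and wild-type sham (n = 4). In the left column no G4D TAC point lies within the G4D sham range, while in every panel of the middle and right columns the G4D TAC and G4D sham points overlap.

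Il6st, which encodes gp130 itself, did not pass in either genotype, and its 4 probe sets did not share a sign. The brightest (1452843_at) averaged 9.59 ± 0.11 in G4D TAC and 9.43 ± 0.14 in G4D sham, and 9.36 ± 0.08 in wild-type TAC and 9.33 ± 0.17 in wild-type sham (SD). The TAC over sham differences were 0.16 ± 0.08 and 0.04 ± 0.09 (SE; limma adjusted p = 0.211 and 0.905). In G4D the other probe sets gave 0.13 ± 0.14 (1437303_at), -0.23 ± 0.18 (1460295_s_at) and -0.39 ± 0.20 (1421239_at), and in wild type they gave 0.07 ± 0.15, -0.03 ± 0.19 and 0.09 ± 0.21. The 95% interval of the brightest probe set's difference ran from -0.02 to 0.34 in G4D and from -0.15 to 0.22 in wild type.

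Stat3, the transcription factor downstream of gp130, also gave no call. Its brightest probe set (1426587_a_at) ran from 9.45 to 9.63 in G4D TAC (median 9.53), against 9.28, 9.30, 9.27, 9.52 and 9.03 in G4D sham. All but 1 G4D sham array lay below the G4D TAC range. In wild-type hearts it ran from 9.18 to 9.83 after TAC, against 9.34 to 9.60 after sham. The differences were 0.25 ± 0.12 in G4D and 0.08 ± 0.12 in wild type (limma adjusted p = 0.144 and 0.839). The second probe set (1460700_at) gave 0.19 ± 0.09 and -0.01 ± 0.09. The remaining 2 gave 0.09 ± 0.12 (1424272_at) and 0.56 ± 0.32 (1459961_a_at) in G4D, and -0.02 ± 0.13 and 0.00 ± 0.34 in wild type. Without G4D sham sample 1, which read 3.04, the G4D difference of 1459961_a_at was 0.24. With the values as deposited, the change of the brightest probe set in G4D was 0.68 and passed (limma adjusted p = 0.041), and relative to the shifted median of all probe sets it was 0.40. The arrays measure Stat3 RNA and not its phosphorylation.

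Socs3 had the largest fold changes of the called members and was the only one called in both genotypes. Its brightest probe set (1455899_x_at) read 6.24, 6.07, 6.73, 5.59, 6.21 and 6.64 in G4D TAC, against 4.46, 4.77, 4.86, 5.27 and 4.98 in G4D sham. Every G4D TAC array lay above every G4D sham array. In wild-type hearts it read 5.60, 5.84, 6.07, 6.37, 6.48 and 7.06 after TAC, against 4.88, 4.92, 5.70 and 4.97 after sham. Here 1 sham array, sample 3, reached above the lowest TAC array. The changes were 1.38 ± 0.24 in G4D and 1.12 ± 0.25 in wild type, with limma adjusted p of 0.000322 and 0.0114. The G4D change was 1.33 without both G4D arrays with high atrial markers (limma adjusted p = 0.00241). The wild-type change stayed called without any 1 array (0.95 to 1.31), with a limma adjusted p of 0.0064 to 0.0497, at its highest just inside the threshold. With the values as deposited the wild-type change was 1.06 and did not pass (limma adjusted p = 0.184).

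The other Socs3 probe sets gave smaller differences. The dimmest (1456212_x_at) averaged 5.60 ± 0.49 in G4D TAC and 4.56 ± 0.51 in G4D sham, and 5.59 ± 0.51 in wild-type TAC and 5.09 ± 0.45 in wild-type sham (SD). It rose by 1.04 ± 0.28 in G4D (limma adjusted p = 0.0123). The change was 1.02 without G4D sham sample 5 and 0.93 without G4D TAC sample 6 (limma adjusted p = 0.0248 and 0.0341), and without both it was 0.91 and did not pass (0.058). Its difference of 0.50 ± 0.30 in wild type did not pass (limma adjusted p = 0.438). The second brightest (1416576_at) gave 0.33 ± 0.28 in G4D and 0.19 ± 0.29 in wild type, with limma adjusted p of 0.452 and 0.831. In the array's naming the suffix _x_at marks sets in which some probes may match other transcripts, and both called Socs3 sets carry it. Among the tested member probe sets the groups did not overlap for 4 of 17 in G4D and 1 of 17 in wild type, beside 8.45% and 8.53% of all tested probe sets.

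Markers of fibroblasts and macrophages were higher after TAC beside Socs3 and Osmr. Of 11 macrophage markers 10 were bright enough to be tested (not Itgam), of which 8 rose in G4D and 7 in wild type, and the mean level of the list was 7.92 to 8.37 in G4D TAC against 7.28 to 7.69 in G4D sham, and 7.78 to 8.63 in wild-type TAC against 7.44 to 7.73 in wild-type sham. Of 10 fibroblast markers 6 rose in G4D and 5 in wild type, and their mean level was 9.49 to 10.1 in G4D TAC against 8.72 to 9.35 in G4D sham, and 9.20 to 9.93 in wild-type TAC against 8.81 to 8.85 in wild-type sham. No TAC array fell into the sham range for either list. Over all genes 12.1% were called higher in G4D and 4.41% in wild type. Of 10 endothelial markers 2 rose in G4D and 3 in wild type, and of 6 tested smooth muscle and pericyte markers 1 and 0. Of 6 tested neutrophil markers none rose in either genotype and 1 fell in G4D, and of 10 cardiomyocyte markers none rose and 1 fell in G4D. The 3' to 5' signal difference of the actin control probe sets, a measure of RNA quality, was 0.193 to 0.379 in G4D TAC against 0.385 to 0.628 in G4D sham, and 0.113 to 0.408 in wild-type TAC against 0.437 to 0.667 in wild-type sham. Its ranges separated TAC from sham in both genotypes, and those of the Gapdh control overlapped in both (-0.315 to -0.0107 in G4D TAC against -0.418 to -0.226 in G4D sham, and -0.303 to -0.0643 in wild-type TAC against -0.326 to 0.111 in wild-type sham). The part of cell makeup and of RNA quality in the members' changes was not tested.

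The genotypes were then compared with each other, which asks whether loss of 1 Gata4 allele shifted these genes. After TAC none of the 17 tested member probe sets passed limma with adjustment, against a background of 2.13%, and 4 had an unadjusted p under 0.05, against 11.2% of all tested probe sets. Osmr came closest, with 7.44 ± 0.28 in G4D TAC and 6.99 ± 0.21 in wild-type TAC (SD, n = 6 each), a difference of 0.45 ± 0.13 and a limma adjusted p of 0.0747. Without G4D TAC sample 4, its lowest array, the difference was 0.55 and passed (limma adjusted p = 0.0126). Without G4D TAC sample 6 it was 0.40 (limma adjusted p = 0.173). Some markers of other cells differed between the genotypes beside it. Of 10 fibroblast markers 9 lay above 0 and 1 passed, the microfibril protein Mfap5, higher by 0.90 ± 0.16 (limma adjusted p = 0.0036), and the list's mean level was 9.49 to 10.1 in G4D TAC and 9.20 to 9.93 in wild-type TAC. Of 6 tested smooth muscle and pericyte markers 2 passed, smooth muscle actin Acta2 (0.81 ± 0.20) and the proteoglycan Cspg4 (0.66 ± 0.13), with a list median of 0.05. The list's mean level was 8.25 to 8.85 in G4D TAC and 8.06 to 8.49 in wild-type TAC. Without G4D TAC sample 6, 1 of the 6 markers passed, and without both G4D arrays with high atrial markers 2 did. Of 10 tested macrophage markers none passed, with a median of -0.13. The part of these cells in the Osmr difference was not tested. Lifr differed by -0.30 ± 0.11, Ctf1 by -0.34 ± 0.14 and Il6st (1452843_at) by 0.23 ± 0.08, with limma adjusted p of 0.201, 0.293 and 0.206. The Il6st probe set was the 1 member probe set whose genotypes did not overlap after TAC, as 1.96% of all tested probe sets did not. Socs3 averaged 6.25 ± 0.41 in G4D TAC and 6.23 ± 0.52 in wild-type TAC, a difference of 0.01 with a 95% interval from -0.45 to 0.48. Stat3 differed by 0.00, with an interval from -0.23 to 0.23.

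**Figure D4:**
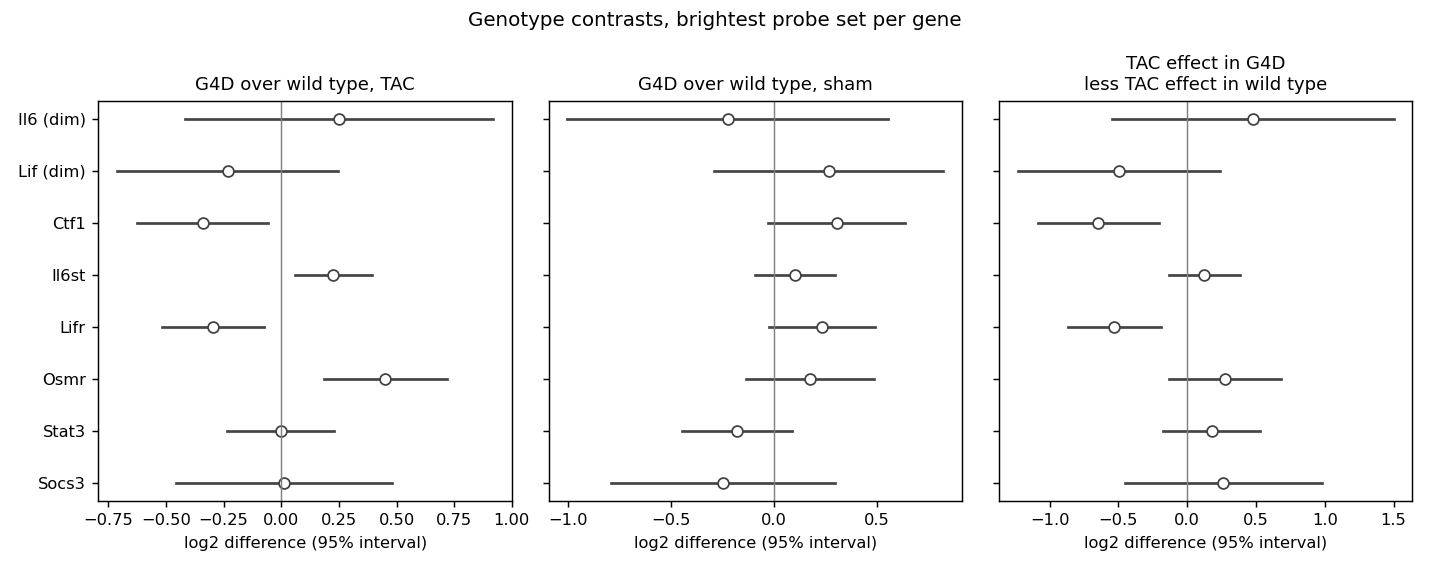
Log2 difference (x axis, point and 95% interval) of the brightest probe set of each of the 8 genes (rows) for G4D over wild type after TAC (left), G4D over wild type in sham (middle) and the interaction (right), each panel with its own scale. The intervals of Ctf1, Il6st, Lifr and Osmr after TAC, and of Ctf1 and Lifr on the right, exclude 0 before adjustment for the number of probe sets, and none of them passed after it.

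In sham hearts no member probe set passed limma with adjustment (background 0.0407%), and 2 of 17 had an unadjusted p under 0.05, beside 6.99% of all tested probe sets. Both belong to Stat3. The probe set 1460700_at averaged 8.47 ± 0.14 in G4D sham (n = 5) and 8.68 ± 0.11 in wild-type sham (n = 4), a difference of -0.21 ± 0.10 with a limma adjusted p of 0.695. The probe set 1459961_a_at differed by -0.75 ± 0.35 (limma adjusted p = 0.707). Much of that came from G4D sham sample 1, which read 3.04 where the other G4D sham arrays read 4.17 to 5.06. Without that array the difference was -0.43. Lifr and Ctf1 differed by 0.23 ± 0.12 and 0.30 ± 0.16 in sham, and by 0.19 and 0.31 without G4D sham sample 5, with none of these past the test. These values depended on the scaling. With each array centred on its median they were 0.04 for Lifr and 0.16 for Ctf1, and as deposited -0.11 and 0.00, with the median of all tested probe sets at -0.25. After TAC the Lifr and Ctf1 differences were -0.24 and -0.31 after median centring, and -0.12 and -0.19 as deposited.

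Whether the response to TAC itself differed between genotypes was tested as an interaction, in which the wild-type change is subtracted from the G4D change. No member passed limma with adjustment (background 0.0259%), and 2 of 17 probe sets had an unadjusted p under 0.05, beside 7.41% of all tested probe sets. These were Lifr, at -0.53 ± 0.16 (95% interval -0.87 to -0.19, limma adjusted p = 0.381), and Ctf1, at -0.64 ± 0.21 (-1.08 to -0.21, limma adjusted p = 0.42). The sizes moved with the scaling. After median centring the interaction was -0.28 for Lifr and -0.47 for Ctf1, and as deposited -0.01 and -0.20, with the median of all tested probe sets at 0.12 and 0.39. Relative to that median it was -0.40 for Lifr and -0.59 for Ctf1 in both cases. Without both G4D arrays with high atrial markers the quantile-normalized values were -0.49 and -0.62. The falls of Lifr and Ctf1, called in G4D and not in wild type, were not shown to differ between the genotypes. For Socs3 the interaction was 0.26 ± 0.34 (-0.45 to 0.98) and for Osmr 0.28 ± 0.20 (-0.13 to 0.68), and as deposited they were 0.54 and 0.70.

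Other genes of the pathway were followed in 3 lists, each gene by its brightest probe set. Of 14 further ligands and receptors, 9 had a probe set of their own and 6 were bright enough to be tested. In G4D hearts 1 of the 6 rose under TAC, Il27ra, a receptor chain of interleukin-27, by 0.82 ± 0.18 (limma adjusted p = 0.0025). Cntfr, the receptor of ciliary neurotrophic factor, fell by 0.48 (SE 0.16, limma adjusted p = 0.0374), and without G4D sham sample 5 its difference of -0.47 did not pass (0.0675). In wild-type hearts none passed, and the largest values were -0.37 for Osm, the ligand of Osmr, and 0.35 for Il27ra (limma adjusted p = 0.305 and 0.368). The background over all 13279 genes was 12.1% higher and 8.13% lower in G4D, and 4.41% higher and 1.46% lower in wild type. The list's median log2 change was -0.11 in G4D and -0.06 in wild type, beside -0.02 over all genes in each.

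Of 16 tested Jak kinases, Stat proteins other than Stat3, adaptors and inhibitors, 5 fell in G4D and 1 in wild type, and none rose. Over all genes 8.13% were called lower in G4D and 1.46% in wild type. The 5 in G4D included Cish, a Stat5-induced inhibitor of cytokine signalling (-0.56 ± 0.14), Gab1, a docking protein downstream of gp130 (-0.53 ± 0.13), Stat5a (-0.53 ± 0.10) and Stat5b (-0.44 ± 0.08), transcription factors of other cytokine receptors. The last was the kinase Jak1 (-0.30 ± 0.09), named after its value was seen. Their limma adjusted p ran from 0.000675 to 0.0178, and all 5 passed without either or both of the G4D arrays with high atrial markers. The genes of the 3 lists were fitted after quantile normalization only, so whether their calls hold under another scaling was not tested. Over all tested probe sets, 1947 were called lower under TAC in G4D with that scaling, 449 after median centring and 85 as deposited. In wild-type hearts Stat5a fell by 0.42 (SE 0.10, limma adjusted p = 0.0211), and Stat5b, at -0.30, had a limma adjusted p of 0.0502. After TAC 1 gene of the list was lower in G4D than in wild type, Cish, by -0.66 ± 0.13 (limma adjusted p = 0.0107), beside 0.896% of all genes. The list's median change under TAC was -0.14 in G4D and -0.02 in wild type, beside -0.02 over all genes in each.

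Of 21 tested genes reported as Stat3 targets, 5 rose and 2 fell in G4D, and 3 rose in wild type. Over all genes 12.1% were called higher and 8.13% lower in G4D, and 4.41% higher in wild type. Timp1, an inhibitor of matrix metalloproteinases, rose most, by 3.25 ± 0.30 in G4D and 2.60 ± 0.32 in wild type (limma adjusted p = 5.24e-07 and 8.81e-05). Serpina3n, a serine protease inhibitor of the acute phase, rose by 1.08 ± 0.22 in G4D and 1.91 ± 0.23 in wild type, and Ccnd1, the cell-cycle regulator cyclin D1, by 1.12 ± 0.14 and 0.90 ± 0.14. Junb, a subunit of the AP-1 transcription factor, rose by 1.17 ± 0.28 in G4D (limma adjusted p = 0.00512), and its difference of 0.38 in wild type did not pass (limma adjusted p = 0.598). Named after their values were seen, the siderophore-binding Lcn2 (1.02) also rose in G4D, and the secreted glycoprotein Lrg1 (-0.66) and the lectin Reg3b (-0.57) fell there. Lcn2 did not pass without G4D sham sample 5 (0.91, limma adjusted p = 0.089) or without G4D TAC sample 6 (0.91, limma adjusted p = 0.0921), and the other 6 passed without either or both. The list's median change was 0.10 in G4D and 0.23 in wild type, beside -0.02 over all genes in each. The remaining 14 tested genes in G4D, among them the Stat3-induced genes Myc (0.10), Mcl1 (0.10) and Pim1 (-0.02), gave no call. No gene of this list differed between the genotypes or in the interaction past the test.

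**Figure D5:**
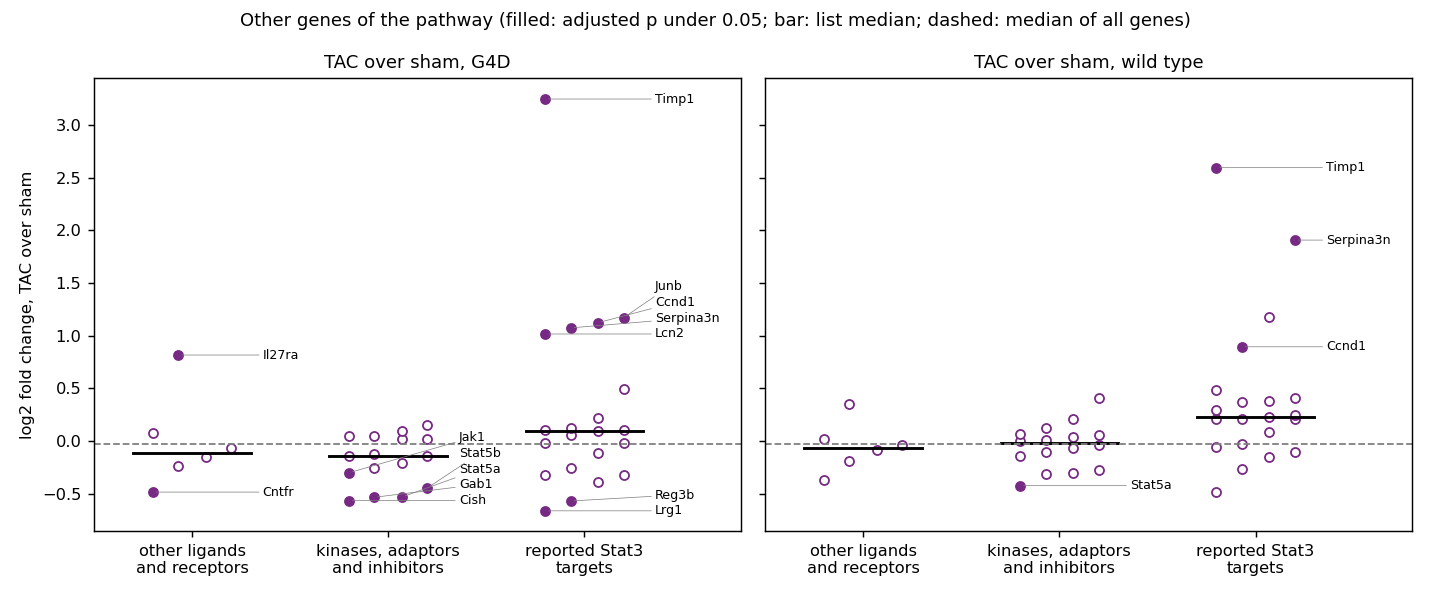
Log2 fold change of TAC over sham (y axis) for each tested gene (points) of 3 lists (x axis) in G4D (left, n = 6 against 5) and in wild type (right, n = 6 against 4), filled where the limma adjusted p was under 0.05, with each list's median (bar) and the median of all genes (dashed line). Timp1, at 3.25 and 2.60, stands above all other points, and every filled point in the middle list lies below 0.

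The genes whose levels over the 21 arrays were most like those of each called member were found by Pearson's r, as a description of arrays that share the same 4 groups. For Socs3 these were Mcam, a cell adhesion molecule (r = 0.92), Col4a1, a basement membrane collagen (0.91), and Btg2, an antiproliferative gene (0.90). For Osmr they were the proton pump subunit Atp6v1h (0.94), the membrane-cytoskeleton linker Msn (0.94) and Trim47 (0.94). For Lifr they were Tppp (0.91), Klf9, a transcription factor that responds to glucocorticoids (0.90), and Fry (0.89). For Ctf1 they were Adi1 (0.89), Arid2, a subunit of a chromatin remodelling complex (0.86), and the fatty acid transporter Slc27a1 (0.85). After each group's mean was removed, the values of r ran from 0.58 to 0.84.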

How the data were processed

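Total RNA from 21 samples was measured on 1 expression array each. The authors deposited 1 value per probe set and array, made with PLIER, per the submitters' processing notes. The log2 scale of the deposited values was inferred from their range (-13.5 to 15.1) and from spike-ins, which averaged 6.76 for bioB and 11.97 for cre. Background correction and normalization are not given in the sources used here. Array medians ran from 4.31 to 5.33, so arrays were quantile normalized. The file holds 45101 probe sets. Without 64 controls, those 27022 whose mean reached the 40th percentile (4.35) were tested. Group means of all 21 arrays were fitted in limma 3.58.1 (R 4.3.3) with eBayes and no covariate, two-sided, with Benjamini-Hochberg adjustment over the tested probe sets of each of 5 comparisons (17 residual degrees of freedom). Dimmer member probe sets took their values from a fit of all 45037. The fit was checked on simulated data. Gene names came from the platform annotation, and only probe sets with 1 symbol were used for lists and likeness. Named genes were all members, up to 4 called genes per list and comparison with the largest change (or up to 2 values), and the 3 most similar genes per called member. Members and lists were chosen with earlier results of these data known. Listed genes that no such probe set names are not analysed here. Alternatives were other filters, scalings, a floor, eBayes settings, array weights, a replicate block, smaller fits and leaving out each array.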

Additional observations from a re-analysis of the deposited data

Results flagged for a closer look

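In 6 of 84 groups of values (21 probe sets in 4 groups), 1 array lay far from the others of its group by Dixon's criterion, which chance meets in about 1 group in 20. For Socs3 1455899_x_at, wild-type sham sample 3 read 5.70, and the next array of its group 4.97. For Stat3 1459961_a_at, wild-type TAC sample 6 read 5.91, and the next 5.11. For Osmr 1459217_at, a dim probe set, G4D TAC sample 1 read 1.25, and the next 2.76. The other 3 belong to Il6st. The probe set 1452843_at read 9.79 in G4D TAC sample 4 (next 9.58), 1421239_at read 5.98 in G4D TAC sample 3 (next 7.03), and 1460295_s_at read 7.30 in G4D sham sample 3 (next 7.73).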

How the results depend on the processing

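The number of member genes called was 4 for TAC in G4D, 1 for TAC in wild type, and 0 for each genotype comparison and the interaction. For TAC in wild type it was 2 with the filter at the 60th percentile, the brightest probe set per gene, trend and robust eBayes, array weights, or only the groups compared, each time with Osmr added, and 0 with the values as deposited. After TAC it was 1, Osmr, with the filter at the 60th percentile (limma adjusted p = 0.0469) and with array weights (0.00706). Leaving out 1 array gave 1 to 2 genes for TAC in wild type and 0 to 1 after TAC, with no change in the other comparisons. As deposited, the count for TAC in G4D was 3, without Ctf1 and Lifr and with Stat3. No called change reversed its sign under any alternative. Without both G4D arrays with high atrial markers, chosen after the data were seen, the counts were 4 for TAC in G4D and 0 after TAC, in sham and for the interaction. The count for TAC in wild type rests on adjusted p close to 0.05 (Osmr 0.0527). The fit of only the groups compared was not run for the interaction, which needs all 4. With the replicate number as a block the member counts were 4, 1, 0, 0 and 0, while the calls over all probe sets were 3655 (main 4747) for TAC in G4D, 598 (1287) for TAC in wild type, 346 (576) after TAC, 1 (11) in sham and 1 (7) for the interaction. The numbers do not pair the samples: over 28 pairs of arrays with the same number, the correlation of deviations from the group means ran from -0.37 to 0.38, and 1 of 21 arrays correlated best with its own number. Il6, Lif and Osmr 1459217_at were limited by signal near background.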
